A study of Mus musculus with 6 samples.

Results

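The immunity-related GTPases (IRGs) examined here were 6 genes, Irgm1, Irgm2, Igtp, Iigp1, Tgtp1 and Tgtp2, chosen by name among the 54446 genes of the count table. RNA-seq was performed on bone marrow-derived macrophages (BMDMs) of male BALB/c mice aged 6 to 8 weeks, grown for 7 days in medium with 20% L929-conditioned medium, a source of the macrophage growth factor M-CSF. Cells were left unpolarized (M0), polarized for 24 hours toward M1 with IFN-γ at 20 ng/mL and LPS at 50 ng/mL, or polarized for 24 hours toward M2 with IL4 at 20 ng/mL. Each state was sequenced without and with regorafenib, a multikinase inhibitor, at 1 µM, added 1 hour before polarization in M1 and M2. For M0, the time in culture after the 7 days and the length of drug exposure are not given in the sources used here. Comparisons with M0 may therefore not be matched in time. The controls belong to a protocol that names DMSO as the vehicle. There was 1 library for each of the 6 conditions, so no value below has a replicate, and how many animals stood behind a library is not given in the sources used here.

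IRGs are GTPases that interferon-γ induces in mouse cells and that act inside the infected cell. The effector members (Iigp1, also called Irga6, and Tgtp1 and Tgtp2, both known as Irgb6) load onto the vacuoles of parasites such as Toxoplasma and of Chlamydia and help to disrupt them. The regulatory members (Irgm1, Irgm2 and Igtp, also called Irgm3) sit on the host's own membranes and hold the effectors inactive there. Transcription of the family is known to run from the interferon-γ receptor to factors, Irf1 among them, that bind the DNA elements called GAS and ISRE.

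The promoters are shown first because these elements lie in them. RefSeq promoters of GRCm38.p6, from 250 bases before to 50 bases after the start site, were held for 5 of the 6 genes, all on chromosome 11. The promoter of Iigp1 was not analysed here. Capitals mark an ISRE core (GAAANNGAAA) or a GAS (TTCNNNGAA), searched on both strands, and each line is the stretch that holds them, read 5′ to 3′ on the gene's strand.
Irgm1 (chr11:48871421-48871485, minus strand): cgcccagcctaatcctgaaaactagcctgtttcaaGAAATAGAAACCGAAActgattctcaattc
Igtp (chr11:58199487-58199555, plus strand): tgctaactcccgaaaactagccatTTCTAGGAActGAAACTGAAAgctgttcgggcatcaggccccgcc
Irgm2 (chr11:58214878-58214947, plus strand): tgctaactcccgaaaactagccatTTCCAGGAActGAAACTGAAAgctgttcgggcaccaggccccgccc
Tgtp1 (chr11:48992289-48992358, minus strand): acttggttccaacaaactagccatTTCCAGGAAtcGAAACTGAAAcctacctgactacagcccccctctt
Tgtp2 (chr11:49064248-49064317, minus strand): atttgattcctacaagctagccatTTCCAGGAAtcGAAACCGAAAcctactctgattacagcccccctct

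An ISRE core stood in 5 of these 5 promoters and a GAS in 4 of them, Irgm1 being the one without. Of 32851 RefSeq mouse promoters of the same length, 3.44% held the ISRE core, 8.3% held the GAS and 0.164% held both within 40 bases of each other, a distance set after these promoters had been read. Both within that distance were found in 4 of the 5. In Irgm1 the ISRE core matched at 2 overlapping places, from 30 to 21 and from 24 to 15 bases before the start site. In the other 4 genes the GAS came first and the ISRE core followed after 2 bases, with the GAS starting 45 bases before the start site in Igtp, 75 in Irgm2, 88 in Tgtp1 and 81 in Tgtp2. These promoters are not independent of each other, since the stretches of Igtp and Irgm2 were equal at 67 of 69 bases and those of Tgtp1 and Tgtp2 at 52 of 70. By Gencode M21, the Igtp stretch lay upstream of every Igtp transcript, that of Irgm2 in an intron of a longer Irgm2 transcript, that of Tgtp1 in introns of longer Tgtp1 transcripts, that of Tgtp2 upstream of its gene, and that of Irgm1 in an exon of a noncoding Irgm1 transcript. The Tgtp1 and Tgtp2 stretches also lay in introns of Olfr56 on the opposite strand. The same search over other lists found an ISRE core in 5 of the 5 guanylate-binding protein genes that had a promoter and a GAS in 2 of them, with both within 40 bases in 0, and both within 40 bases in 2 of 7 other IRG family genes.

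**Figure D1:**
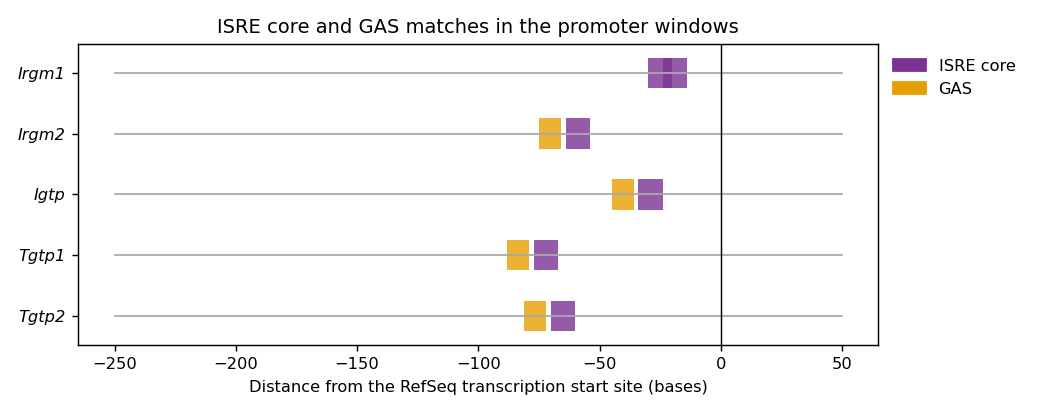
Places of the ISRE core (purple) and the GAS (orange) in the promoters of 5 IRG genes, as distance in bases from the RefSeq start site (vertical line), with grey lines for the 300 bases searched. The GAS lies just before the ISRE core in Irgm2, Igtp, Tgtp1 and Tgtp2, and Irgm1 has 2 overlapping ISRE cores alone.

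The libraries held between 25359309 and 34898342 counts. Values are given as CPM, a gene's counts relative to the TMM-scaled total of its library. The TMM factors ran from 0.820 to 1.12. Intervals are 95% and cover counting error only, not the spread between cultures, and reads made by PCR are not independent molecules. All 8 macrophage markers were present, with summed levels of 31070 (M0), 31690 (M1) and 22160 (M2) CPM in control and 48980, 34250 and 33820 CPM with regorafenib. The 5 NK cell markers, and Cd3d, Cd3e, Cd3g and Cd8a of the 6 T cell markers, had 3 or fewer counts in every library. The other T cell markers, Cd4 and Lck, reached 10 or more counts. The T cell markers summed to between 0.651 and 1.86 CPM, highest in M1 control. B cell markers summed to at most 0.228 CPM, dendritic cell markers to between 0.212 and 4.52 and fibroblast markers to between 3.19 and 10.2. The 6 neutrophil and granulocyte precursor markers summed to 80.7 to 87.2 CPM in the controls and 89.5 to 155.5 with regorafenib, nearly all of it Mpo, while Elane, Ltf, Ly6g and Ngp stayed at 3 or fewer counts. The part of these marker levels in the IRG values was not tested. In such bulk RNA, fewer expressing cells and less RNA per cell cannot be told apart. The M1 gene Nos2 had 39 counts in M0 control and 410649 in M1 control, and the M2 gene Retnla had 0 in M0 control and 941 in M2 control.

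Irgm1, the regulator found on lysosomal and mitochondrial membranes among others, was the IRG with the most RNA in M0. It stood at 94.6 CPM in M0 control, 63.1 in M0 with regorafenib, 467 in M1 control, 396 in M1 with regorafenib, 40.4 in M2 control and 58.7 in M2 with regorafenib. Both M1 libraries were above the other 4, and the intervals of M0 with regorafenib and M2 with regorafenib overlapped, while every other neighbour in the order was apart beyond counting error. Irgm2, a regulator of the Golgi, had 31.4, 19.6, 298, 228, 13.0 and 14.3 CPM in the same order. Here M2 control and M2 with regorafenib were the pair that overlapped. Igtp, a regulator of the endoplasmic reticulum and lipid droplets, had 24.2, 13.0, 406, 290.3, 11.1 and 10.1 CPM, and its M0 library with regorafenib overlapped with M2 control, and M2 control with M2 with regorafenib.

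The effectors were scarce outside M1. Iigp1, which coats parasite vacuoles, had 44 counts in M0 control and 19 in M0 with regorafenib, 6153 and 4386 in M1, and 7 and 5 in M2, which is 1.43, 0.576, 238, 182, 0.192 and 0.179 CPM. Tgtp2, the more abundant Irgb6 gene, had 153, 35, 5905, 3810, 32 and 38 counts, or 4.98, 1.06, 229, 158, 0.876 and 1.36 CPM. Tgtp1 had 4, 2, 906 and 536 counts in the M0 and M1 libraries and 0 in both M2 libraries, where the floor of 3 counts that a count of 0 allows is 0.0822 CPM in control and 0.107 CPM with regorafenib. For all 3 effectors the M1 libraries lay far above the rest, and neighbours among the lowest libraries overlapped within counting error. The counts of Tgtp1 and Tgtp2 are uncertain one by one, because 70.3% of the 100-base words in Tgtp1's transcripts also occur in Tgtp2's and 76.8% of those of Tgtp2 occur in Tgtp1's, so a read of that length can fit both; the reads were paired, and whether the mate would place them was not tested. Summed as 1 unit they had 157 counts in M0 control, 37 in M0 with regorafenib, 6811 in M1 control and 4346 in M1 with regorafenib. Igtp and Irgm2 share 162 exon bases on the same strand and 5.16% and 3.01% of their words, and Irgm1 and Iigp1 shared no word with any other gene.

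**Figure D2:**
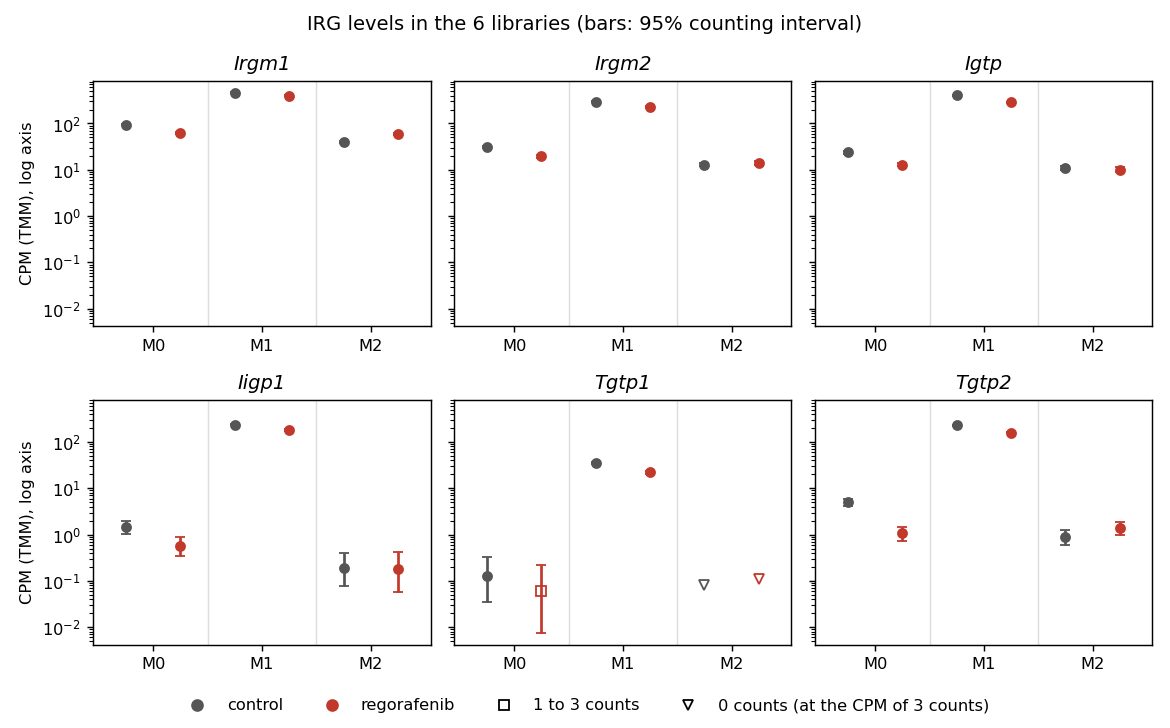
Level of each IRG in the 6 libraries, as CPM after TMM scaling on a log axis, with grey for control and red for regorafenib; bars are 95% counting intervals of 1 library each. All 6 genes are highest in the M1 libraries, and Tgtp1 has 0 counts in both M2 libraries.

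On the scale of CPM per kilobase of exon (Gencode M21), which alone allows levels of different genes to be compared, the order of the genes differed between M0 and M1. In M0 control Irgm1 was at 16.3, Igtp at 12.0, Irgm2 at 8.50, Tgtp2 at 1.70, Iigp1 at 0.246 and Tgtp1 at 0.0406. In M1 control Igtp was at 201, Irgm2 at 80.7, Irgm1 at 80.3, Tgtp2 at 77.8, Iigp1 at 40.9 and Tgtp1 at 10.9. Irgm1 thus had the highest value in M0 and Igtp in M1. The values of Tgtp1 and Tgtp2 rest on the uncertain counts described above, so their place in the order is uncertain too. Of the summed counts of the 6 genes, the 3 effectors held 4.18% (Wilson interval 3.65 to 4.78) in M0 control, 1.75% (1.35 to 2.26) in M0 with regorafenib, 30.0% (29.6 to 30.4) in M1 control, 28.4% (27.9 to 28.9) in M1 with regorafenib, 1.63% (1.19 to 2.22) in M2 control and 1.82% (1.35 to 2.44) in M2 with regorafenib.

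The first comparison asked how IFN-γ with LPS altered the IRGs, in control cells and in cells given regorafenib. All 6 IRGs rose in M1 in a model of all 6 libraries with a term for state and one for drug (edgeR's quasi-likelihood test, Benjamini-Hochberg adjustment over 14110 genes), with adjusted p from 0.000225 for Iigp1 to 0.00252 for Irgm1. In that model 18.5% of all genes tested rose in M1 and 18.2% fell. Its 2 residual degrees of freedom measure how far the drug's ratio differed between states, not the spread between cultures. The log2 differences were 2.52 (SE 0.30) for Irgm1, 3.44 (SE 0.25) for Irgm2, 4.32 (SE 0.25) for Igtp, 7.83 (SE 0.32) for Iigp1, 8.24 (SE 0.37) for Tgtp1 and 6.21 (SE 0.64) for Tgtp2. Tgtp1 passed the filter on low counts through its M1 libraries alone, so it had to differ. The value for Tgtp2 moved most with the libraries used, to 7.48 without M0 control and 5.39 without M0 with regorafenib.

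Within the controls, M1 over M0 was 4.93-fold for Irgm1, 9.50-fold for Irgm2, 16.8-fold for Igtp, 45.9-fold for Tgtp2 and 166-fold for Iigp1. Tgtp1 gave 269-fold from 4 counts in M0, with an interval of its log2 ratio from 6.71 to 9.95. All 6 exceeded 2-fold, as did 17.4% of the 14168 genes with 10 or more counts in a library of the pair, but Tgtp1 met that minimum through M1 alone in both arms and so had to be higher there. With regorafenib, all 6 again exceeded 2-fold, against 16.3% of genes, and the log2 ratios were 2.65 (2.58 to 2.72) for Irgm1, 3.54 (3.42 to 3.66) for Irgm2, 4.48 (4.34 to 4.63) for Igtp, 8.30 (7.66 to 9.04) for Iigp1 and 7.22 (6.74 to 7.74) for Tgtp2. For Tgtp1 the ratio was 8.52 (6.66 to 11.57), from 2 counts in M0. The log2 ratio was larger with regorafenib than in control for Irgm1 by 0.35 (0.26 to 0.44), Irgm2 by 0.29 (0.14 to 0.44), Igtp by 0.41 (0.24 to 0.59), Iigp1 by 0.93 (0.15 to 1.70) and Tgtp2 by 1.70 (1.17 to 2.23). With 1 CPM added these differences shrank for the effectors, to ratios of 6.62 in control and 6.86 with regorafenib for Iigp1 and of 5.26 and 6.27 for Tgtp2, and the median over the 6 IRGs was then 4.51 in control and 4.42 with regorafenib. In each of these 5 genes the level in M1 was nonetheless lower with regorafenib than in control, and the level in M0 was lower by a larger factor.

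Upstream of the IRGs, 13 of 19 genes of the interferon-γ receptor pathway rose in M1 and 0 fell in the same model (15 at an unadjusted p under 0.05). Over all genes tested, 18.5% rose and 18.2% fell, and these shares stand beside every list count here. Jak2, the kinase bound to the receptor's second chain, rose by 4.40, the transcription factor Irf1 by 3.78, and Socs1, an inhibitor of Jak kinases, by 7.51 on the log2 scale. Ifngr2 rose by 1.31, whereas Ifngr1, the chain that binds the ligand, had a log2 difference of -1.08 (adjusted p = 0.0507). Ifng itself had 0 counts in 5 libraries and 1 in M2 control, and Ifnb1 had 4 counts at most. All 11 guanylate-binding proteins, a neighbouring family of interferon-induced GTPases, rose in M1, with Gbp4 at 9.45 and Gbp9 at 4.07, though 4 of them (Gbp6, Gbp8, Gbp10 and Gbp11) passed the filter through their M1 libraries alone and had to differ. Of 12 other IRG family genes, 10 were tested, of which 7 rose and 2 fell, and 3 of the 7 (Gm4951, F830016B08Rik and Gm4841) passed the filter through M1 alone. Ifi47 (Irgd) rose by 3.83 and Gm12250 (Irgb10) by 4.12, while 9930111J21Rik1 and 9930111J21Rik2 fell by 1.42 and 1.04, and Irgc1 and Gm12187 had 3 or fewer counts in every library.

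Downstream, of 13 autophagy genes, most of them from the ATG conjugation machinery that the effectors need in order to load onto vacuoles, with the initiation genes Ulk1 and Becn1 beside them, 0 rose and 1, Atg7, fell in M1, by 1.26 on the log2 scale. Of 8 ubiquitin tags and adaptors of vacuoles, 4 rose and 2 fell, with Trim21, a ubiquitin ligase, up by 2.12 and Lgals3, a galectin that marks damaged vacuoles, down at a log2 difference of -2.04. Over all genes tested 18.5% rose and 18.2% fell, so the numbers that fell do not set these lists apart.

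The second comparison asked how IL4 altered the IRGs. In the controls, the log2 ratio of M2 to M0 was -1.23 (-1.32 to -1.14) for Irgm1, -1.27 (-1.43 to -1.11) for Irgm2, -1.12 (-1.30 to -0.94) for Igtp, -2.90 (-4.30 to -1.74) for Iigp1 and -2.51 (-3.10 to -1.95) for Tgtp2. These 5 were thus all more than 2-fold lower in the M2 control library, as were 7.61% of the genes with 10 or more counts. Iigp1 (44 and 7 counts) met that minimum through the M0 library alone, and its ratio was -1.03 with 1 CPM added. Tgtp1 had 4 counts in M0 and 0 in M2 and gave no usable ratio. The comparison shares the M0 control library with the comparison of M1 above.

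With regorafenib, M2 over M0 was -0.10 (-0.20 to -0.01) for Irgm1, -0.46 (-0.64 to -0.28) for Irgm2, -0.37 (-0.59 to -0.14) for Igtp, -1.69 (-3.47 to -0.22) for Iigp1 and 0.36 (-0.35 to 1.06) for Tgtp2. Of these 5, 1 (Iigp1) was 2-fold lower, against 5.18% of genes, but it reached 10 counts only in M0, where it was high, and with 1 CPM added its ratio was -0.42. Across both arms the model called 0 of the 6 IRGs in M2 (edgeR, adjusted p from 0.106 to 0.686), and 4 had an unadjusted p under 0.05; DESeq2 called 1, Iigp1, with an adjusted p of 0.000889. Over all genes the edgeR model called 26 higher (0.184%) and 2 lower (0.0142%). The value for Tgtp2, -1.24 in the full model, turned on single libraries: it was -2.09 (edgeR, adjusted p = 0.0302) without M0 with regorafenib, -2.13 without M2 with regorafenib, -0.21 without M2 control and 0.0014 without M0 control. Iigp1 was also called without M0 with regorafenib, at an adjusted p of 0.0118 by edgeR.

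**Figure D3:**
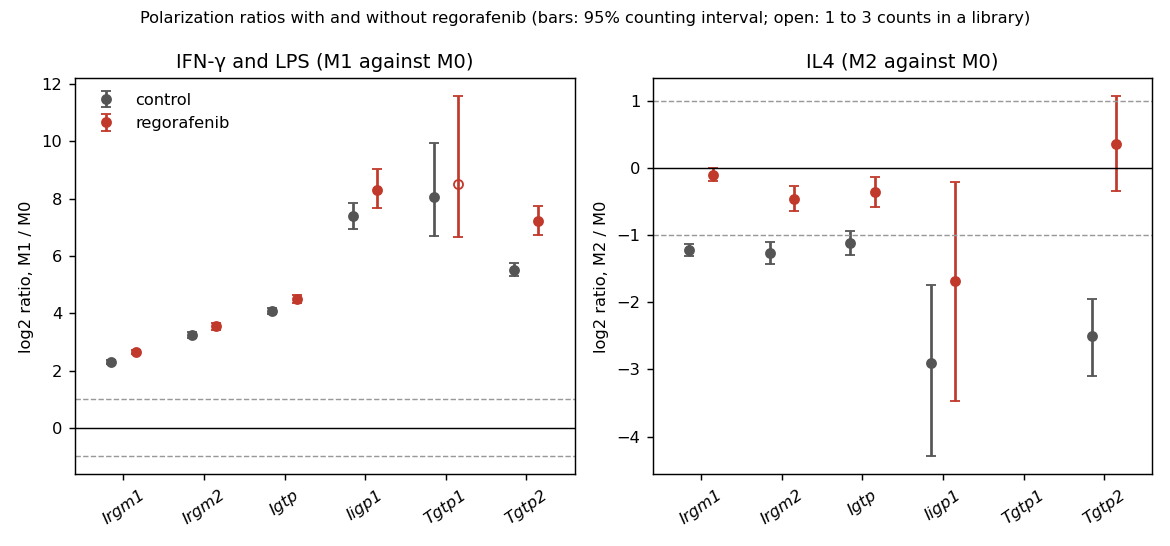
Log2 ratio of M1 to M0 (left) and of M2 to M0 (right) for each IRG, in control (grey) and with regorafenib (red); bars are 95% counting intervals, dashed lines mark 2-fold and Tgtp1 is left out on the right for want of counts. In M1 every gene lies above 2-fold in both arms, and in M2 the 5 control values lie below the dashed line at -1 while 4 of the 5 regorafenib values lie above it.

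Other interferon-induced GTPases were also lower in M2 control than in M0. All 8 guanylate-binding proteins with 10 or more counts were at least 2-fold lower, against 7.61% of all genes, with a median log2 ratio of -2.44, and with regorafenib 3 of 7 were, against 5.18%, with a median of -0.87. Of the 8, Gbp4 (35 and 2 counts) and Gbp6 (12 and 0 counts) met the minimum through the M0 library alone and had to be lower, as did Gbp4 (27 and 8 counts) among the 7. Mx1, Mx2 and Rnf213 were at -1.44, -2.53 and -1.21 in control and -0.56, -1.16 and -0.26 with regorafenib. Socs1 went the other way, at 3.04 in control and 4.06 with regorafenib.

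The third comparison asked how regorafenib altered the IRGs within each state. In M0, the library with regorafenib was lower for each of the 5 IRGs with 10 or more counts. The log2 ratios were -0.58 (-0.67 to -0.50) for Irgm1, -0.68 (-0.82 to -0.53) for Irgm2, -0.90 (-1.07 to -0.72) for Igtp, -1.31 (-2.17 to -0.51) for Iigp1 and -2.23 (-2.80 to -1.69) for Tgtp2. The 2 effectors were lower by more than 2-fold, as were 10.9% of the 13964 genes compared, and the 3 regulators were not. With 1 CPM added to both values Iigp1 was at -0.63 and no longer past 2-fold, while Tgtp2 was at -1.54. Their median was -0.90, against 0.00 over all genes. Tgtp1 went from 4 to 2 counts, which is too few for a ratio to be read.

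In M1, all 6 IRGs were lower with regorafenib, with intervals below 0, and 0 of them by 2-fold, against 3.46% of 13440 genes 2-fold lower. The log2 ratio was -0.24 (-0.28 to -0.20) for Irgm1, -0.39 (-0.44 to -0.34) for Irgm2, -0.48 (-0.53 to -0.44) for Igtp, -0.39 (-0.44 to -0.33) for Iigp1, -0.66 (-0.81 to -0.50) for Tgtp1 and -0.53 (-0.59 to -0.47) for Tgtp2. A ratio below 0 was found for 53.5% of all genes compared. Their median was -0.44, against -0.02 over all genes. Irgm1 again had the ratio closest to 0. The sum of Tgtp1 and Tgtp2 gave -0.55 (-0.60 to -0.49) in M1 and -2.19 (-2.75 to -1.66) in M0, close to the values of Tgtp2.

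In M2 the IRGs gave a mixed pattern. Irgm1 was higher with regorafenib, at a log2 ratio of 0.54 (0.43 to 0.64). Irgm2 at 0.14 (-0.06 to 0.33), Igtp at -0.14 (-0.37 to 0.08) and Tgtp2 at 0.63 (-0.08 to 1.36) had intervals that include 0, and Iigp1 and Tgtp1 were too scarce to compare. Of the 4 with 10 or more counts, 0 exceeded 2-fold in either direction, against 6.15% of 13813 genes higher and 5.07% lower.

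The drug's log2 ratio therefore differed between states beyond counting error for several IRGs. From M0 to M2 it was higher by 1.12 (0.99 to 1.25) for Irgm1, 0.81 (0.57 to 1.05) for Irgm2, 0.76 (0.48 to 1.03) for Igtp and 2.86 (2.001 to 3.72) for Tgtp2. For Iigp1 the interval, from -0.62 to 3.04, includes 0. From M1 to M2 it was higher by 0.78 (0.67 to 0.88) for Irgm1, 0.52 (0.33 to 0.72) for Irgm2, 0.34 (0.12 to 0.57) for Igtp and 1.16 (0.48 to 1.84) for Tgtp2. With 1 library per condition, whether such differences exceed the spread between cultures cannot be tested.

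Across the 3 states, the drug term of the model called 0 of the 6 IRGs (edgeR, adjusted p from 0.41 to 0.872) and 0 of all 14110 genes (0.0%), of which 1637 had an unadjusted p under 0.05, among them Igtp at a log2 difference of -0.50 (SE 0.18) and Iigp1 at -0.62 (SE 0.24). Without either M0 library Igtp was at -0.30 and Iigp1 at -0.34 and 0 IRGs had an unadjusted p under 0.05, and Iigp1 was at -1.02 without M1 control and -1.03 without M1 with regorafenib. DESeq2 called 297 genes and 0 IRGs. Leaving out 1 library gave between 0 and 814 genes, 726 without M1 control and 814 without M1 with regorafenib, and 0 IRGs each time. For Irgm1 the difference was -0.08 (SE 0.24), and it turned to 0.16 without either M0 library.

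**Figure D4:**
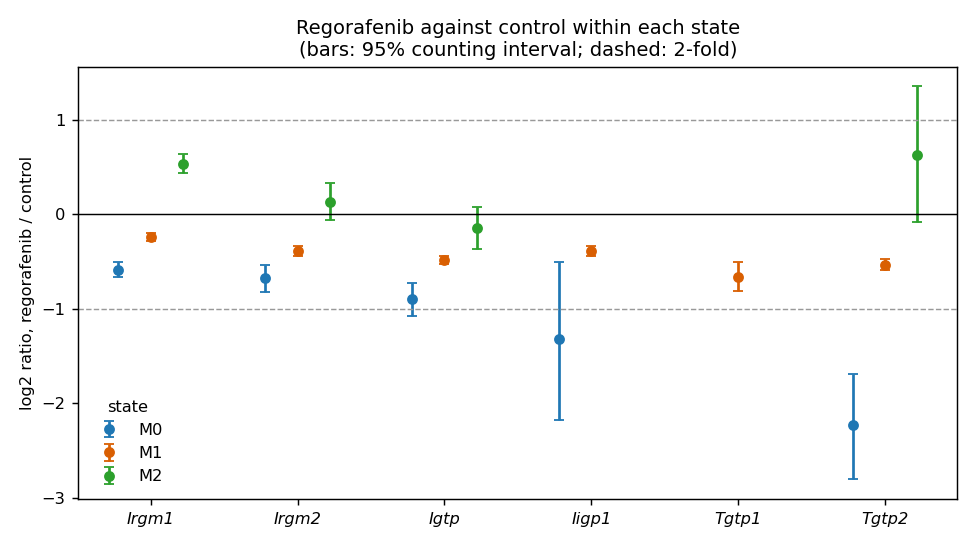
Log2 ratio of regorafenib to control for each IRG in M0 (blue), M1 (orange) and M2 (green); bars are 95% counting intervals of 1 library per condition, dashed lines mark 2-fold, and genes with fewer than 10 counts in both libraries are left out. The M0 and M1 values all lie below 0, with those of M0 for Iigp1 and Tgtp2 below -1, and the M2 values lie between -0.14 and 0.63.

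Other IRG family genes were compared on the same scale. Ifi47, with 708, 425, 6696, 5617, 256 and 451 counts from M0 control to M2 with regorafenib, gave drug ratios of -0.84 (M0), -0.15 (M1) and 1.20 (M2). Gm12250, with 293, 100, 2671, 2123, 109 and 77 counts, gave -1.65, -0.23 and -0.12. Of the other IRG genes with 10 or more counts, 4 of 8 were below 0 in M0, against 49.7% of all genes, and 10 of 10 in M1, with a median of -0.42 in M1. In M2, 5 of 7 were above 0, against 47.3% of all genes. Their lowest value in M1 was that of F830016B08Rik, at -1.10 from 357 and 155 counts, followed by Gm12185 at -0.91, whose exons overlap those of Tgtp1 by 223 bases on the same strand. The highest were Irgq at -0.13 and Ifi47.

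The guanylate-binding proteins had drug ratios below 0 in 8 of 8 genes in M0, with a median of -0.64. The lowest value was that of Gbp6 (-1.69, from 12 and 4 counts), which met the minimum through the control library alone and had to be lower. In M1, 7 of 11 were above 0 and 4 below, where 46.5% of all genes were above 0, with a median of 0.03, from Gbp10 at -0.15 and Gbp6 at -0.14 to Gbp8 at 0.52 and Gbp11 at 0.68. In M2, 5 of 6 were above 0, with a median of 0.81. Mx1, Mx2 and Rnf213, which respond to type I interferon, were lower in every state, with values of -2.25, -2.15 and -1.20 for M0, -0.17, -0.15 and -0.31 for M1, and -1.37, -0.79 and -0.25 for M2. No test of a difference between these families was made.

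**Figure D5:**
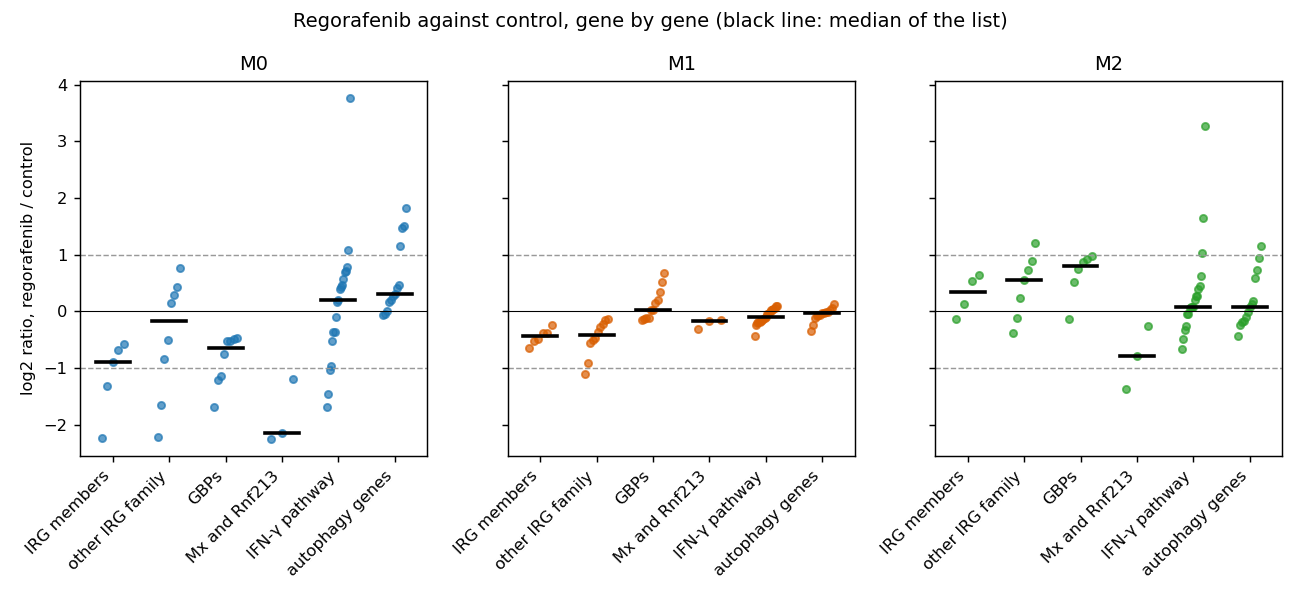
Log2 ratio of regorafenib to control for each gene with 10 or more counts in 6 lists, in M0, M1 and M2, with the list's median as a black line and 2-fold as dashed lines. In M1 the IRGs and the other IRG family genes all lie below 0 while the guanylate-binding proteins (GBPs) spread around 0, and in M2 the medians of these 3 lists lie above 0.

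The upstream regulators of the family had drug ratios of both signs. In M0, the pathway's lowest values were those of Socs1 (63 and 21 counts) at -1.69 and of Usp18, which restrains interferon signalling, at -1.47, with Stat2 at -0.96. Its highest were Ciita, the transactivator of MHC class II genes (47 and 686 counts), at 3.77 and Ifngr1 (1634 and 3697 counts) at 1.08, with Irf1 (1040 and 1922 counts) at 0.78 and Irf8 at 0.58. The 19 genes had a median of 0.20, with 11 above 0 and 8 below, where 50.3% of all genes were above 0. In M1, 13 of the 19 were below 0, with a median of -0.10, the lowest being Stat3 at -0.43 and Usp18 at -0.24 and the highest Ciita at 0.10. In M2 the highest were Ciita at 3.28 and Irf1 (1091 and 2605 counts) at 1.64, and the lowest Socs1 at -0.67 and Irf9 at -0.49. Jak1 and Jak2 stood at 0.39 and 0.47 (M0), -0.20 and 0.02 (M1), and 0.08 and 0.45 (M2). Among the interferon ligands and type I receptor genes, Irf7 was at -1.89 in M0, and Ifnar1, Ifnar2 and Tyk2 at -0.17, 0.65 and 0.48. Irf1 was thus higher in the M0 library with regorafenib, where the IRGs were lower.

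The autophagy genes had 4 of 13 members 2-fold higher with regorafenib in M0, against 9.47% of all genes higher. They were Ulk1, the kinase that starts autophagy, at 1.83, Map1lc3a at 1.51, Gabarapl1 at 1.47 and Map1lc3b at 1.15, the last 3 being members of the LC3 and GABARAP family. In M1 the same 4 were at -0.07, -0.34, -0.07 and -0.03. There 0 of the 13 exceeded 2-fold, but only 701 of 13440 genes did, so that count does not set them apart. In M2 Ulk1 was at 1.15 and Gabarapl1 at 0.94. Among the ubiquitin adaptors, Calcoco1 (1065 and 3471 counts) was at 1.60 in M0, and Ube2n, a ubiquitin-conjugating enzyme, at -0.68.

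The genes whose profile over the 6 libraries was nearest to each IRG were found as the smallest root mean square distance between centred log2(CPM + 0.5) values, among 11313 genes with 100 or more counts in a library. For Irgm1 they were Parp10 (distance 0.148), Ptprk (0.150) and Trim30a (0.161). For Irgm2 they were Ddx60 (0.143), Vwa1 (0.181) and Tap1 (0.199), and for Igtp Rasgrf1 (0.0847), Ifi214 (0.188) and Gm12250 (0.218). For Iigp1 they were Gbp3 (0.390), Ptges (0.394) and Ms4a4c (0.446), for Tgtp1 Mgarp (0.161), Adm (0.179) and Timd4 (0.247), and for Tgtp2 Slfn1 (0.350), Trim30d (0.413) and Gbp2b (0.417). Among the IRGs themselves, Irgm2 and Igtp were nearest to each other at 0.397 and Irgm1 and Iigp1 farthest apart at 2.33. The distances rest on 6 libraries, all of which the M1 level dominates, and the added 0.5 CPM shortens the range of scarce genes such as Tgtp1. From M0 control to M2 with regorafenib, Rasgrf1 had 25, 5, 464, 346, 1 and 0 counts, where Igtp had 406 and 282 in M2. Vwa1 had 15, 6, 296, 149, 0 and 3, and Ptprk 21, 14, 158, 120, 8 and 11. The small distances of such scarce genes depend on the added 0.5 CPM.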

How the data were processed

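The authors deposited whole-number counts per gene. By their methods, RNA was prepared with a stranded mRNA kit, and paired reads of 100 bases each were checked with FastQC, trimmed with cutadapt 2.4 and mapped to GRCm38 with STAR 2.7.2a, which also counted them on Gencode M19. Which strand column was used is not given in the sources used here. Gene names and lengths came from Gencode M21 (37 of 54446 IDs unmatched), and promoters from RefSeq.

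Counts were scaled with TMM (edgeR 4.0.16, R 4.3.3). Log2 ratios within pairs of libraries have conditional exact binomial intervals, and a count of 0 was replaced by 0.5. Genes with 3 or fewer counts were taken as at the floor, and 10 counts in a library of the pair were required for counts past 2-fold. The additive model was edgeR's quasi-likelihood test, with DESeq2 1.42.0 as an alternative. It was also run on simulated counts with the same drug effect in every state. That run does not show how the model behaves where the drug's effect differs between states, which is what its residual measures here. Named genes were the 6 IRGs, the 3 nearest profiles of each, set regulators and label checks, and the 2 highest and 2 lowest of each list; Stat2, Gm12185, Gabarapl1, Map1lc3b, Mx1, Mx2, Rnf213 and other list members outside that rule were named after their values were seen. The IRGs and lists were chosen with earlier results of these data known. Some list members are not reported here by name.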

Additional observations from a re-analysis of the deposited data

Results flagged for a closer look

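Irgm1 is given here because its log2 ratio of regorafenib to control lay on opposite sides of 0 in different states: -0.58 in M0 and -0.24 in M1, but 0.54 in M2. All 3 counting intervals exclude 0. The difference between states was not tested, since each state has 1 library per arm.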

How the results depend on the processing

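No paired analysis was possible because the labels give no replicate numbers and each condition has 1 library; the drug term of the additive model compares the arms within states. All 6 IRGs rose in M1 under every alternative run (DESeq2, its size factors, no filter, M0 and M1 libraries alone, each library left out). In M2 edgeR called 28 genes; DESeq2 called 412, no filter 408, the M0 and M2 libraries alone 100, and leaving out 1 library 77 to 294, with 1 IRG called by DESeq2, 1 without a filter and 0 to 2 with a library left out. For the drug, 0 genes became 297 with DESeq2, 333 without a filter, 386 with the M0 and M2 libraries alone (a setting chosen after seeing the data) and 0 to 814 with a library left out, and the Irgm1 difference turned to 0.163 without M0 control and 0.1631 without M0 with regorafenib. With a library left out, that difference ranged from -0.41 to 0.163, and the Tgtp2 difference in M2 from -2.13 to 0.001404, the latter without M0 control. Leaving out either library of a state leaves the drug term to the libraries of the other states. The runs without each M0 library are therefore not separate checks of the drug term. Scaling by total counts moved the median of all genes in M1 against M0 by -0.44 in control and -0.41 with regorafenib, and the IRG medians from 4.79 to 4.35 and from 5.85 to 5.44. With 1 CPM added, those medians were 4.51 and 4.42, and the drug's in M0 was -0.65 in place of -0.90. Genes past 2-fold for the drug in M0, M1 and M2 were 2851, 701 and 1551, then 1495, 154 and 565 with 1 CPM added and 6688, 4139 and 5275 with no minimum count. For M2 against M0 they were 1700 in control and 1328 with regorafenib, then 780 and 451 with 1 CPM added and 5387 and 4953 with no minimum, and for M1 against M0, 5263 and 5367 became 9577 and 9484 with no minimum. With few counts outside M1, depth limits the ratios of Iigp1 and Tgtp1.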
